A study of Mus musculus with 4 samples.

Results

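The glutathione and antioxidant genes of the developing mouse prostate were examined as a set of 59 genes, taken by name from the 49671 genes of the deposited table. The list holds the enzymes that make and recycle glutathione, the glutathione peroxidases, the glutathione S-transferases, the enzymes that break glutathione down, the thioredoxin and peroxiredoxin families, the superoxide dismutases and catalase, and the regulator NRF2 (gene Nfe2l2) with its partner Keap1 and the target genes Nqo1 and Hmox1. Membership rested on gene names and applied no cut-off to measured values, but the list was chosen with earlier results of these data known. All 59 names were found in the table, and 55 passed the filter on low values.

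Bulk RNA-seq was made from untreated CD-1 mice, labelled as between postnatal days 10 and 13, a range that the study's methods narrow at its upper end. They describe male animals with a mixed background and lobes taken from many of them. Tips were cut from the ventral prostate, dissociated with collagenase, and live epithelial cells were sorted after removal of CD45+, CD31+ and CD140a+ cells. Basal cells, multipotent at this age, were EpCAM high and CD49f high (basal 1 and basal 3). Luminal cells, which descend from them, were EpCAM high and CD49f low (luminal 3 and luminal 2). The labels do not say whether the 2 libraries of a group came from separate animals, so the p-values measure only the spread between these libraries, which may be technical. Values are read counts that the authors scaled to the same number of aligned reads in every library, and group values are the mean ± SD of 2 libraries.

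Whole reads could be recovered from the spacing of low values, and came to 3194291 and 3080227 in the basal libraries against 1036682 and 643268 in the luminal libraries. A read was therefore worth 6.26 and 6.49 units in the basal libraries and 19.4 and 31.2 units in the luminal libraries. Off this spacing lay 1.71% of low values in luminal 2, 2.13% in basal 3, 1.38% in luminal 3 and 1.01% in basal 1. Some values of luminal 2 showed a second spacing, so its recovered reads, and the edgeR and DESeq2 results made from them, are less certain. No low value of a member in luminal 2 was off the spacing. Both luminal libraries were shallower than both basal ones, so depth and cell type cannot be told apart. The sort matched its labels, since all 7 basal markers were higher in both basal libraries, and 7 of 10 luminal markers were higher in both luminal libraries. The basal keratin Krt5 read 18481 and 15824 in basal cells against 77 and 93 in luminal cells. Transcripts of stromal and smooth muscle cells were present in every library, with a summed level of 11 markers of 134955 and 263019 in basal 1 and basal 3 and of 82611 and 262513 in luminal 3 and luminal 2. Nuclear protein-coding genes took 76.0% and 74.7% of the signal in basal cells against 57.3% and 64.2% in luminal cells.

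Glutathione is a tripeptide of glutamate, cysteine and glycine that is made in the cytosol by glutamate-cysteine ligase (a catalytic subunit, Gclc, and a modifier subunit, Gclm) and glutathione synthetase (Gss). Peroxidases spend it on hydrogen peroxide and lipid peroxides, S-transferases attach it to electrophiles, and gamma-glutamyltransferases split it outside the cell, while thioredoxin and the peroxiredoxins form a parallel thiol system. NRF2 is held in check by KEAP1 and, when released under oxidative or electrophilic stress, binds antioxidant response elements beside many of these genes. Loss of the pi-class transferase GSTP1 by promoter methylation is a well known feature of human prostate cancer.

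The core of the antioxidant response element, TGACNNNGC, was searched on both strands in the 250 bases before each RefSeq transcription start. The matches are shown because they mark where NRF2, itself a member, could in principle bind other members. The motif was found in 11 of the 50 member genes with a promoter sequence (22.0%), beside 11.5% of the 27025 genes with one. A match describes letters in a window and is no evidence of binding. Of the members with averages at least 2-fold higher in basal cells, 3 of 5 held a match, and of those at least 2-fold higher in luminal cells, 3 of the 13 with a promoter sequence. Among the other members 5 of 32 did. The 5 stretches below are from GRCm38.p6, each 29 bases, 5′ to 3′ on the strand of its gene, with the match in capitals (GCNNNGTCA where it lies on the opposite strand). They stand at chr3:122245413-122245441 (plus strand) for Gclm, chr6:138140461-138140489 (plus) for Mgst1, chr2:75704885-75704913 (minus) for Nfe2l2, chr4:116685456-116685484 (plus) for Prdx1 and chr10:75571467-75571495 (plus) for Ggt1.
Gclm: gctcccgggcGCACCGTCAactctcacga
Mgst1: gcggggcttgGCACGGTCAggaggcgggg
Nfe2l2: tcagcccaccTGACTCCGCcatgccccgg
Prdx1: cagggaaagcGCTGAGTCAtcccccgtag
Ggt1: gtcacaagccTGACGCTGCgcctccttgc
The first 3 belong to the genes with higher averages in basal cells, Prdx1 had near-equal averages, and Ggt1 was among those with a higher average in luminal cells. The match lies 134 bases before the start in Gclm, 56 in Mgst1, 240 in Nfe2l2, 133 in Prdx1 and 83 in Ggt1. The Mgst1 and Nfe2l2 stretches also lie in an annotated exon, and Ggt1 has several starts, of which another holds a match 36 bases before it, also in an exon.

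Among the members, the S-transferases leaned towards luminal cells, and Nfe2l2, Gclm and Mgst1 had higher averages in basal cells. By the fold rule of the study, a ratio of group averages of at least 2 or at most 0.5, 17 of the 55 members tested lay past it towards luminal cells (30.9%, beside 18.3% of all 18737 genes tested) and 5 towards basal cells (9.09%, beside 16.3%). Where the 4-library average had to reach 100, 9 of 40 members lay past it towards luminal cells (22.5%, beside 11.4%) and 3 towards basal cells (7.5%, beside 12.8%). The median log2 difference of the members, luminal over basal on the log2(value + 1) scale, was 0.33, and that of all genes was -0.10. Of the 55 members, 6 passed the filter through their luminal values alone and 2 through their basal values alone, which favours a difference in that direction. Among the 47 that passed in both groups, 11 lay past the fold threshold towards luminal cells (23.4%, beside 12.4% of the 14953 genes that passed in both) and 4 towards basal cells (8.51%, beside 12.0%), and the median log2 difference was 0.25.

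None of the members passed limma at an adjusted p of 0.05. In all genes tested that threshold was passed by 0.256% in the luminal direction and 0.438% in the basal direction. At an unadjusted limma p under 0.05 there were 7 members in the luminal direction (12.7%, beside 7.82% of all genes) and 3 in the basal direction (5.45%, beside 10.7%). On recovered reads, edgeR's quasi-likelihood test and DESeq2 each called 1 member in the luminal direction, Gstt3 (beside 2.42% and 2.17% of all genes), and 0 in the basal direction (beside 2.72% and 2.27%). At an unadjusted p under 0.05, edgeR had 10 members in the luminal direction (18.2%, beside 9.36% of all genes) and 3 in the basal direction (5.45%, beside 9.79%). The 10 include Gsta3 and Gstm7, which passed the filter through luminal values alone. DESeq2 had 7 in the luminal direction (12.7%, beside 5.44%) and 2 in the basal direction (3.64%, beside 5.71%). With 2 libraries against 2, an exact permutation test of 1 gene cannot go below p = 0.333.

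Library by library, 21 members had both luminal values above both basal values (38.2%, beside 23.6% of all genes). In 9, both basal values were above both luminal values (16.4%, beside 27.3%), and 25 overlapped. The 21 include Gsta2, Gsta3, Gstm7 and Chac2, which passed the filter through luminal values alone. Among the 47 that passed in both groups, the counts were 17 (36.2%, beside 20.8%) and 9 (19.1%, beside 28.3%). The scaling matters to this balance. Rescaled to nuclear protein-coding genes, the median of all genes moved by 0.31 on the log2 scale, the luminal share of all genes past the fold threshold moved from 52.9% to 67.9%, and the members past it became 22 towards luminal cells (beside 24.3% of all genes under that scaling) and 2, Nqo1 and Chac1, towards basal cells (beside 11.5%). In bulk samples, fewer cells that express a gene and less RNA per cell cannot be told apart.

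**Figure D1:**
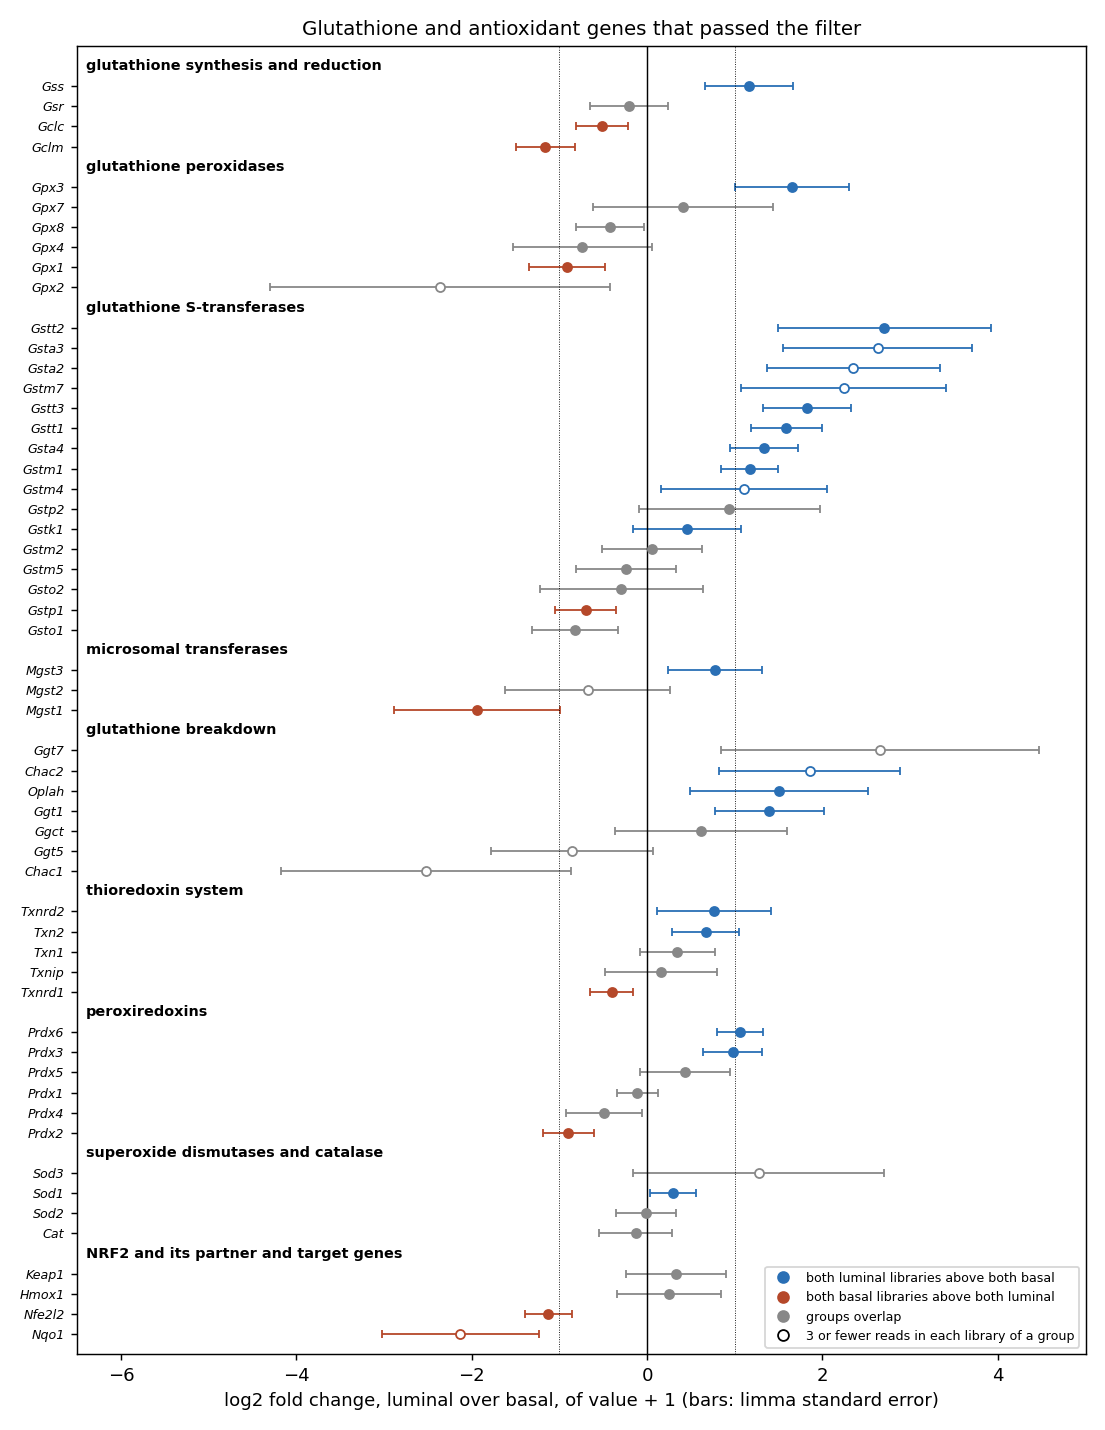
Fitted log2 fold change, luminal over basal, of the 55 members tested, by role group, with bars for the limma standard error, dotted lines at a fold of 2 and open points for members with 3 or fewer reads in each library of a group. S-transferases lie mostly to the luminal side, with a median of 1.14, and Nfe2l2, Gclm and Mgst1 lie to the basal side.

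Glutathione synthesis was split between its genes. Gclm, the modifier subunit of the first enzyme (chr3:122245557-122270732), read 2204 and 1325 in basal 1 and basal 3 and 813 and 717 in luminal 3 and luminal 2. Both basal values lay above both luminal values. The means were 1765 ± 622 and 765 ± 67.9, 2.31-fold higher in basal cells, with a log2 difference of -1.16 (SE 0.33, limma adjusted p = 0.150, edgeR adjusted p = 0.0948). Gclm was no longer past the fold threshold under quantile normalization, under the nuclear protein-coding scaling, or without basal 1 (1.73-fold). The catalytic subunit Gclc read 1090 and 903 against 620 and 779, without overlap, 1.42-fold higher in basal cells (log2 difference -0.51, SE 0.30, limma adjusted p = 0.415), and had the highest 4-library mean per kilobase of exon in this group (225), although Gclm was higher in basal cells (280 against 265) and Gsr in luminal cells (208 against 186). Gss, which adds glycine, went the other way with 132 and 201 in basal cells against 426 and 312 in luminal cells. Its luminal mean was 2.22-fold higher, with a log2 difference of 1.16 (SE 0.50, limma adjusted p = 0.302), and under the threshold without basal 1 (1.84-fold) or luminal 3 (1.87-fold). Annotated exons of genes on the opposite strand overlap 15.4% of the Gss exons, and whether counting used strand is not given in the sources used here. Gsr, the reductase that regenerates glutathione with NADPH, overlapped at 645 and 598 against 774 and 374.

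The S-transferases held 10 of the 17 members past the fold threshold towards luminal cells, and 10 of the 21 with both luminal values above both basal values. Of the 19 listed, 16 were tested, 10 had averages at least 2-fold higher on the luminal side (beside 18.3% of all genes) and 0 on the basal side (beside 16.3%), 10 were higher in both luminal libraries without overlap (beside 23.6%), and the median log2 difference was 1.14. These figures include Gsta2, Gsta3 and Gstm7, which passed the filter through luminal values alone. Among the 13 that passed in both groups, 7 were past the threshold on the luminal side (beside 12.4%) and 0 on the basal side (beside 12.0%), 7 did not overlap with luminal above basal (beside 20.8%), and the median was 0.94. The same 10 members were past the threshold under median-ratio and nuclear protein-coding scaling, and 9 of them, without Gstm4, under quantile normalization. Of the 10, 5 had an average of 100 or more. Summed over all 19 genes, the values were 3464 and 3869 in basal cells and 6450 and 5609 in luminal cells, which is 3667 ± 286 against 6029.5 ± 595 and a ratio of 1.64.

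The theta class, whose genes sit side by side on chromosome 10, differed most between the group sums with all 4 libraries. Its 3 listed genes together read 690 and 422 in basal cells and 2537 and 1434 in luminal cells, a ratio of 3.57. This ratio was 2.58 without luminal 3, below the 2.72 of the alpha class there. Without basal 3 it was 2.88, again below the alpha class, at 3.02. Gstt3 (chr10:75774115-75781414) read 470 and 234 against 1588 and 873, or 75 and 36 recovered reads against 82 and 28. Both luminal values exceeded both basal values, and the means of 352 ± 167 and 1230.5 ± 506 differed 3.50-fold, ranging from 2.48-fold without luminal 3 to 5.26-fold without basal 1. The limma log2 difference was 1.82 (SE 0.50, adjusted p = 0.132), and edgeR gave 1.88 with an adjusted p of 0.0310 and DESeq2 an adjusted p of 0.0279. The edgeR call rests on 2 of the libraries, since the adjusted p was 0.0973 without basal 3 and 0.353 without luminal 3, against 0.00385 without basal 1 and 0.0197 without luminal 2. Of the Gstt3 exons, 13.6% overlap Gm20441, an annotated gene on the same strand, and the level of Gm20441 was also higher in both luminal libraries (1026 and 436 against 213 and 123), so reads may have been shared or left out between them.

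Gstt1 (chr10:75783813-75798584) read 182 and 175 in basal cells and 581 and 499 in luminal cells. The basal pair lay close together and far below the luminal pair, with means of 179 ± 4.95 and 540 ± 58.0, 3.03-fold higher in luminal cells (log2 difference 1.59, SE 0.40, limma adjusted p = 0.108). Gstt2 (chr10:75831114-75837424) read 38 and 13 against 368 and 62. The luminal average of Gstt2 was set mostly by luminal 3, with 19 reads against 2 in luminal 2, so its 8.43-fold ratio (log2 difference 2.71, SE 1.22, limma adjusted p = 0.315) has little weight behind it and ranged from 2.43 without luminal 3 to 14.4 without luminal 2 and 16.5 without basal 1.

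In the alpha class, most of the signal came from Gsta4, an enzyme that conjugates the lipid peroxidation product 4-hydroxynonenal. Gsta4 (chr9:78182774-78209349) read 200 and 227 in basal cells against 581 and 499 in luminal cells. The groups did not overlap, and the means of 214 ± 19.1 and 540 ± 58.0 differed 2.53-fold (log2 difference 1.33, SE 0.39, limma adjusted p = 0.156). Gsta2 and Gsta3 had at most 3 reads in any library, so no fold is given for them, and Gsta1 had 0 reads in all 4, which allows up to 3 reads in each. Much of the Gsta1 sequence, 90.5% of its 50-base windows, occurs in other genes too, so reads from it may not have been counted.

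Among the mu genes, Gstm1 carried most of the signal and was the S-transferase with the highest level per kilobase. Gstm1 (chr3:108012255-108017973) read 576 and 825 in basal cells and 1336 and 1807 in luminal cells, without overlap. The means were 701 ± 176 and 1572 ± 333, 2.24-fold higher in luminal cells (log2 difference 1.17, SE 0.32, limma adjusted p = 0.136, edgeR adjusted p = 0.0910), but 1.90-fold without basal 1 and 1.91-fold without luminal 2. Of its 50-base windows, 18.9% are found in other genes. Gstm2 (276 and 292 against 465 and 187) and Gstm5 (244 and 312 against 349 and 156), neighbours of Gstm1, overlapped between the groups. Gstm4 and Gstm7 were past the fold threshold at 6 reads or fewer in every library. Gstm3 had 2 reads in each basal library and 0 in the luminal ones, and Gstm6 had 3 reads in luminal 3 and 0 elsewhere, too few for a fold.

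**Figure D2:**
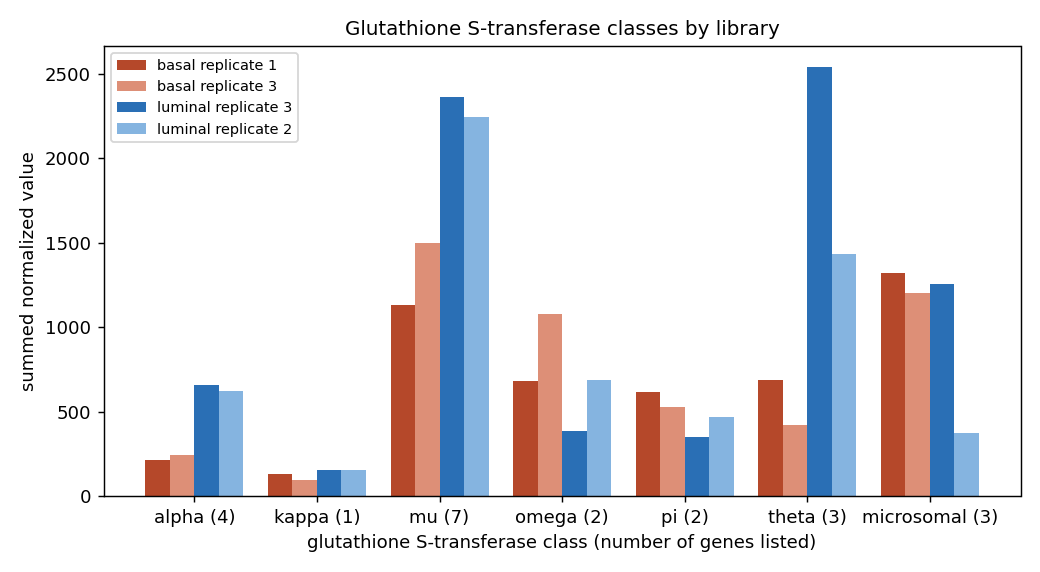
Summed normalized value of each S-transferase class (horizontal axis, with the number of genes), 1 bar per library. The theta, alpha and mu sums are higher in both luminal libraries, with ratios of group means of 3.57, 2.80 and 1.75, and the pi sum is higher in both basal libraries.

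Summed values of the pi and omega classes had ratios of 0.717 and 0.609, below 1 unlike those of theta, alpha and mu. Gstp1 read 564 and 500 in basal cells and 310 and 343 in luminal cells, without overlap and 1.63-fold higher in basal cells (log2 difference -0.70, SE 0.35, limma adjusted p = 0.361). Its copy Gstp2 was low and overlapped at 50 and 26 against 39 and 125, although its averages were past the fold threshold towards luminal cells, and the 2 genes share sequence (33.7% of Gstp1 windows occur elsewhere), so the split of reads between them is uncertain. Gsto1 overlapped at 626 and 1013 against 310 and 654, and Gsto2 and the mitochondrial and peroxisomal Gstk1 stayed at 156 or less in every library. The microsomal transferases diverged within the family. Mgst1 (chr6:138140316-138156755) read 1058 and 929 against 716 and 93, with both luminal values below both basal values. Its mean was 2.46-fold higher in basal cells (994 ± 91.2 against 405 ± 441, log2 difference -1.93, SE 0.95, limma adjusted p = 0.352), and luminal 2, with 3 reads, set most of that gap. Without luminal 2 the difference was -0.47 (1.39-fold, against 10.7-fold without luminal 3), and Mgst1 was past the fold threshold neither there nor under the nuclear protein-coding scaling. Mgst3 read 182 and 234 against 503 and 249, with the luminal values higher and the ratio, 1.81, under the threshold, and Mgst2 overlapped at 81 and 39 against 39 and 31.

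Of the 6 glutathione peroxidases, 1 had both luminal values higher without overlap (beside 23.6% of all genes), 1 had both basal values higher (beside 27.3%), and 4 overlapped. Gpx1, the main cytosolic selenium enzyme, had the highest mean level per kilobase of this group in both cell types. It read 1541 and 2137 in basal cells and 1413 and 654 in luminal cells. The values did not overlap, but basal 1 and luminal 3 lay close, and the means of 1839 ± 421 and 1034 ± 537 differed 1.78-fold (log2 difference -0.92, SE 0.44, limma adjusted p = 0.338), and the ratio ranged from 1.30 without luminal 2 to 2.81 without luminal 3 (1.49 without basal 3 and 2.07 without basal 1). Gpx3, a secreted plasma peroxidase (chr11:54902453-54910377), read 81 and 97 against 194 and 405, without overlap. Its luminal average was 3.37-fold higher (log2 difference 1.65, SE 0.65, limma adjusted p = 0.264) on 10 and 13 luminal reads, and 2.18-fold higher without luminal 2 against 4.55-fold without luminal 3. Gpx4, which protects membranes from lipid peroxides, overlapped at 332 and 162 against 77 and 249, and 34.7% of its windows recur in other genes, chiefly the pseudogene Gpx4-ps2. Gpx8, an enzyme of the endoplasmic reticulum, overlapped at 470 and 702 against 368 and 499, as did Gpx7 there at 31 and 162 against 97 and 93. Gpx2 had 8 reads or fewer in every library.

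The breakdown enzymes included 3 members past the threshold towards luminal cells (beside 18.3% of all genes) and 1 towards basal cells (beside 16.3%), of 7 tested. Of these, Chac2 and Ggt7 passed the filter through luminal values alone and Chac1 through basal values alone, which leaves 1 of 4, Ggt1, towards luminal cells (beside 12.4% of the genes that passed in both groups) and 0 towards basal cells (beside 12.0%). Ggt1, the gamma-glutamyltransferase of the cell surface (chr10:75561604-75586200), read 81 and 182 in basal cells and 368 and 280 in luminal cells. The luminal values were higher without overlap, and the means of 132 ± 71.4 and 324 ± 62.2 differed 2.46-fold (log2 difference 1.39, SE 0.62, limma adjusted p = 0.312), or 1.78-fold without basal 1 and 4.0-fold without basal 3. Oplah, the 5-oxoprolinase, was uneven in basal cells (219 and 32) and even in luminal cells (232 and 249). Ggt5 read 69 and 175 against 39 and 93, highest in basal 3, and Ggct, which cleaves gamma-glutamyl amino acids, 106 and 65 against 58 and 280. The other members were sparse: Ggt7, Chac1 and Chac2 had 5 reads or fewer in every library, and Ggt6 had 1 read in each basal library and 0 in the luminal ones.

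**Figure D3:**
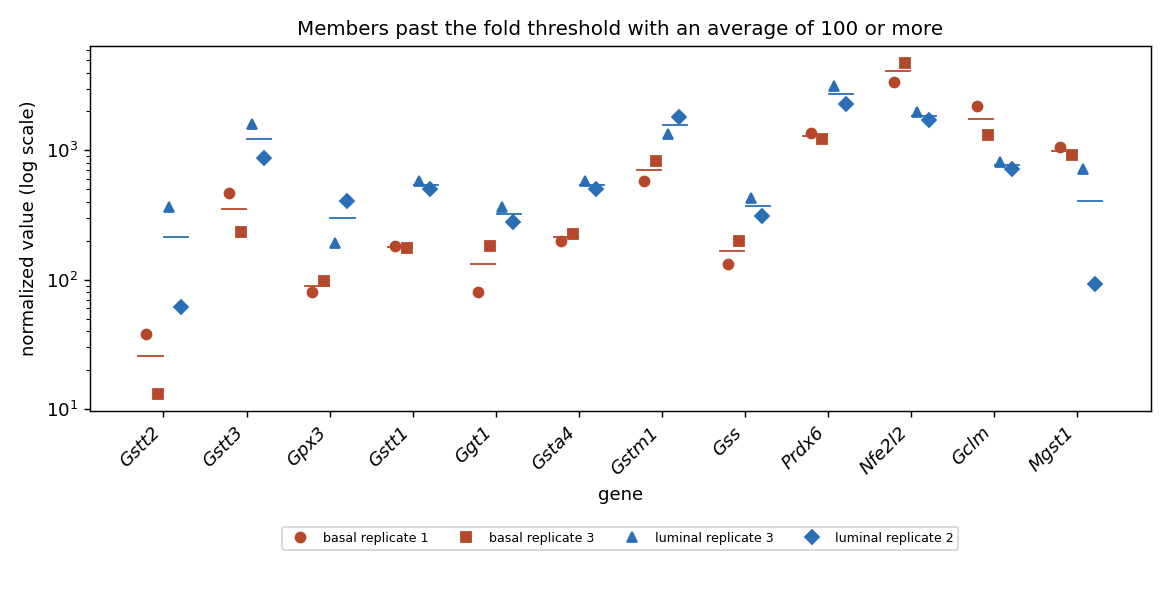
Deposited normalized value (log axis) in each of the 4 libraries for the 12 members past the fold threshold with an average of 100 or more, with a line at each group mean. The luminal mean is higher in 9 genes and the basal mean in Nfe2l2, Gclm and Mgst1, where luminal 2 lies far below luminal 3 for Mgst1 (93 against 716).

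Peroxiredoxins differed by member. Prdx6, which reduces phospholipid hydroperoxides with glutathione (chr1:161240112-161251219), read 1353 and 1221 in basal cells against 3156 and 2275 in luminal cells. Both luminal libraries were above both basal ones, with means of 1287 ± 93.3 and 2716 ± 623, 2.11-fold higher in luminal cells (log2 difference 1.06, SE 0.27, limma adjusted p = 0.106, edgeR adjusted p = 0.0666), but 1.77-fold without luminal 3. The mitochondrial Prdx3 read 363 and 435 against 891 and 686, at 1.98-fold just under the threshold (limma adjusted p = 0.217). Prdx2 went the other way at 1697 and 1507 against 1026 and 717, 1.84-fold higher in basal cells (limma adjusted p = 0.195). Exons of Junb and Rnaseh2a on the opposite strand overlap 11.5% of the Prdx2 exons, and Junb was itself higher in both basal libraries (20635 and 11699 against 6177 and 10689), so without strand these reads cannot be told apart. Prdx1, the member of this family with the highest level per kilobase, showed little difference at 2499 and 2449 against 2556 and 2057 (log2 difference -0.11, SE 0.23), and its sign turned under the quantile and nuclear protein-coding scalings. Prdx4 of the endoplasmic reticulum (457 and 883 against 407 and 499) and Prdx5 (689 and 292 against 736 and 499) overlapped.

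Of the 5 thioredoxin genes 0 passed the fold threshold (beside 18.3% of all genes in the luminal and 16.3% in the basal direction), and the 5 members had a median log2 difference of 0.34. Txnip, the thioredoxin-interacting protein, had the highest 4-library mean per kilobase of all 59 members, with a wide spread between libraries. It read 5104 and 2878 in basal cells and 2285 and 8040 in luminal cells, so the luminal libraries held both the lowest and the highest value. The log2 difference of 0.16 (SE 0.64) turned to -0.75 without luminal 2 and to -0.25 without basal 3, and was 1.07 without luminal 3. Opposite-strand exons overlap 19.4% of its exons, and 19.1% of those of Prdx5, 13.9% of Gstm5, 11.7% of Oplah and 10.9% of Keap1. The mitochondrial Txn2 (357 and 260 against 503 and 467) and Txnrd2 (144 and 78 against 174 and 187) were higher in both luminal libraries, and the cytosolic reductase Txnrd1 (1566 and 1630 against 1297 and 1122) in both basal libraries. The cytosolic Txn1 overlapped at 745 and 591 against 1200 and 592.

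Of the superoxide dismutases and catalase, 1 of 4 was past the fold threshold towards luminal cells (beside 18.3% of all genes) and 0 towards basal cells (beside 16.3%). That gene, Sod3, passed the filter through luminal values alone. Among the 3 that passed in both groups, 0 lay past the threshold in either direction (beside 12.4% and 12.0%). Catalase (Cat) read 889 and 598 in basal cells and 891 and 499 in luminal cells. Its log2 difference of -0.13 (SE 0.42) was within the spread of either group and changed sign under the quantile and nuclear protein-coding scalings and without basal 1 or luminal 2. Sod1, the cytosolic enzyme, read 864 and 1033 against 1104 and 1215, with both luminal values higher, and the mitochondrial Sod2 overlapped at 833 and 539 against 678 and 654. The secreted Sod3 was past the fold threshold towards luminal cells at 7 reads or fewer in every library, with overlap.

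The transcript that encodes NRF2 stood on the basal side, while NRF2 protein and its activity were not measured. Nfe2l2 (chr2:75675513-75704641) read 3401 and 4781 in basal cells and 1994 and 1714 in luminal cells. Every basal value was above every luminal value, with means of 4091 ± 976 and 1854 ± 198, 2.21-fold higher in basal cells. Its log2 difference of -1.12 (SE 0.26) had the lowest limma adjusted p of all members, 0.0899, and an edgeR adjusted p of 0.0719, and it was under the fold threshold with the quantile and nuclear protein-coding scalings and without basal 3 (1.83-fold). Nqo1, a quinone reductase and common reporter of NRF2, was examined after its values were seen. It read 138 and 87 in basal cells and 19 and 31 in luminal cells, where each luminal library had 1 read, and its value in basal 3 lay off the spacing of that library. The ratio of pooled reads scaled by depth was 4.69 in favour of basal cells, with a 95% interval for counting error of 1.20 to 40.2. That interval leaves out the spread between libraries. The log2 difference of Nqo1 was -2.13 (SE 0.90, limma adjusted p = 0.288, edgeR adjusted p = 0.315). Keap1 (326 and 149 against 310 and 249) and Hmox1 (182 and 507 against 349 and 374) overlapped. Of the dissociation stress markers, 9 immediate early and heat shock genes, the summed level was highest in basal 1 (334494), near-equal in basal 3 (178833) and luminal 2 (187630), and lowest in luminal 3 (122835). Of the 9, 4 (Fosb, Junb, Egr1 and Dnajb1) had both basal values above both luminal values (beside 27.3% of all genes) and 0 the reverse (beside 23.6%). The part of these markers in the values of Nfe2l2 and the other members was not tested.

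**Figure D4:**
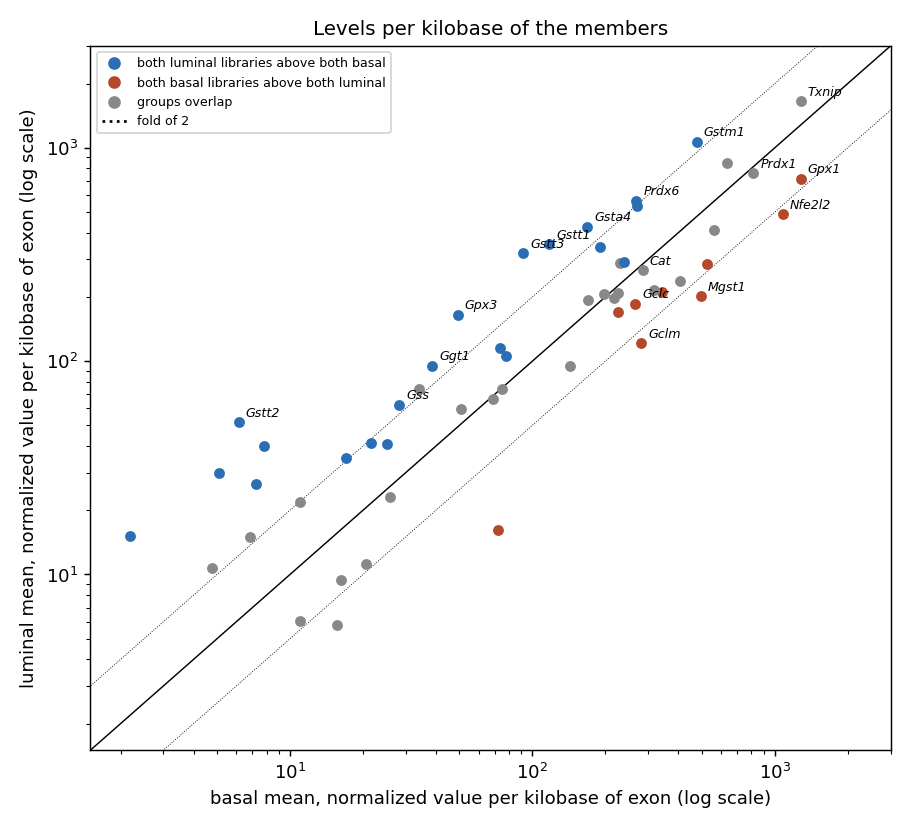
Mean normalized value per kilobase of exon in luminal cells (vertical, log axis) against basal cells (horizontal, log axis), 1 point per member tested and a dotted line at a fold of 2 on each side. Txnip and Gpx1 lie highest on the basal axis and Txnip and Gstm1 on the luminal axis.

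On the group means per kilobase of exon, in basal cells Txnip (1278), Gpx1 (1276) and Nfe2l2 (1078) came first, ahead of Prdx1 (813). In luminal cells Txnip (1653) was followed by Gstm1 (1067), Txn1 (853), Prdx1 (758) and Gpx1 (717). The first places rest on single libraries. Txnip was highest in luminal 2 (2574) but not in luminal 3 (732), where Txn1 (1142), Gpx1 (981), Gstm1 (907) and Prdx1 (840) were higher, and in basal 3 it (922) was behind Gpx1 (1483) and Nfe2l2 (1259). Gstm1 stood at 476 per kilobase in basal cells and Nfe2l2 at 488 in luminal cells.

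Genes that supply or use the same chemistry were read from a companion list of 45, all of which passed the filter. By the fold rule 8 stood on the luminal side (17.8%, beside 18.3% of all genes) and 5 on the basal side (11.1%, beside 16.3%), which is near or below the background. Of the 8, Msrb2 passed the filter through luminal values alone, with 3 reads or fewer in every library. Both luminal values lay above both basal values in 12 (26.7%, beside 23.6% of all genes), and the reverse held in 16 (35.6%, beside 27.3%). The median log2 difference of the list was -0.29, beside -0.10 for all genes. None of the 45 passed limma at an adjusted p of 0.05. At an unadjusted limma p under 0.05 there were 4 in the luminal direction (8.89%, beside 7.82% of all genes) and 7 in the basal direction (15.6%, beside 10.7%). On recovered reads edgeR called Pgd and Abcc4 in the luminal direction (4.44%, beside 2.42% of all genes) and Slc1a4 in the basal direction (2.22%, beside 2.72%), of which DESeq2 called Abcc4 and Slc1a4. Pgd, the NADPH-producing 6-phosphogluconate dehydrogenase, read 413 and 377 in basal cells and 1104 and 1028 in luminal cells, 2.70-fold higher (edgeR adjusted p = 0.0404, limma 0.0705). Abcc4, an exporter of conjugates, read 225 and 305 against 949 and 1028, 3.73-fold higher (edgeR adjusted p = 0.0167, limma 0.0688). Slc1a4, a carrier of neutral amino acids including cysteine, read 789 and 715 against 136 and 218, 4.25-fold higher in basal cells (edgeR adjusted p = 0.0228, limma 0.0705).

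Each of these 3 edgeR calls was lost without at least 2 of the 4 libraries in turn, with adjusted p ranging from 0.0591 to 0.221 for Pgd (lost without any library), from 0.0139 to 0.0982 for Abcc4 (lost without basal 1 and without luminal 3) and from 0.0355 to 0.149 for Slc1a4 (also lost without basal 1 and without luminal 3). The glutamine carrier Slc1a5 read 1359 and 1384 against 3718 and 2493, and malic enzyme Me1 257 and 136 against 329 and 467. The methionine sulfoxide reductases Msra (113 and 52 against 174 and 218) and Msrb1 (282 and 110 against 542 and 280) were also past the threshold towards luminal cells, Msrb1 with overlap. Towards basal cells stood the mitochondrial glutaredoxin Glrx2 (269 and 325 against 19 and 93, with 1 and 3 luminal reads), Sesn2 (482 and 630 against 232 and 280) and Sesn3 (8755 and 4703 against 2691 and 3085). Sesn1 also had both basal values above both luminal values (921 and 799 against 194 and 686), so that all 3 sestrins, stress-induced regulators of redox and nutrient signalling, were without overlap in an order that 27.3% of all genes share. Leaving out 1 library put Me1 (1.55-fold), Msra (1.73), Msrb1 (1.46) and Sesn2 (1.88) under the fold threshold without basal 3. It did so for Sesn3 without basal 1 (1.63), for Me1 without luminal 2 (1.67), and for Slc1a5 (1.82), Msrb1 (1.43) and Sesn2 (1.99) without luminal 3, while Msra and Msrb1 were at 3.77 and 3.74 without basal 1. Under nuclear protein-coding scaling Sesn2 (1.76) and Sesn3 (1.88) were also under the threshold, as was Sesn3 with quantile normalization (1.80). The ratio for Glrx2 ranged from 3.19 without luminal 3 to 15.6 without luminal 2. The cystine importer Slc7a11, a target of NRF2, overlapped at 1096 and 513 against 1123 and 592.

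**Figure D5:**
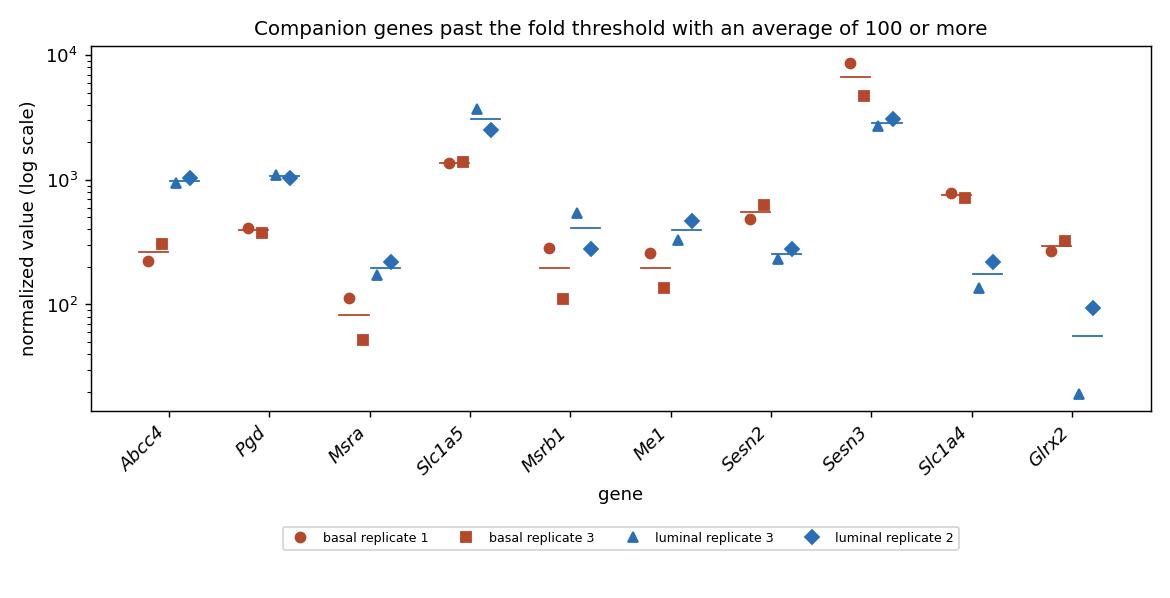
Deposited normalized value (log axis) of the 10 named companion genes in each library, with a line at each group mean. Abcc4, Pgd and Slc1a5 are higher in both luminal libraries, and Slc1a4, Glrx2, Sesn2 and Sesn3 are higher in both basal libraries.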

How the data were processed

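RNA-seq of 2 basal and 2 luminal libraries was analysed. The authors mapped reads with STAR to GRCm38 (mm10), counted them per gene with HTSeq on an Ensembl annotation, scaled them to an equal number of aligned reads per library and deposited this normalized signal, rounded to whole numbers. Picard is named in the submitters' notes without a role, and counting mode, strand use and removal of duplicates are not given in the sources used here. All columns were mapped, leaving 0 unmapped.

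Low values (at most 60 reads) are multiples of what a read is worth, and 97.9% to 99.0% of them lay within 0.6 of such a multiple. Recovered reads differed between the libraries of a group by more than sampling noise. Intervals and floors (3 reads) cover counting error only. Genes entered the tests if both libraries of a group reached 10 and their average reached 20 (18737 genes). limma 3.58.1 with trend was fitted to log2(value + 1), with Benjamini-Hochberg adjustment over all genes, in R 4.3.3. edgeR 4.0.16 and DESeq2 1.42.0 on recovered reads, other scalings, filters, pseudocounts and left-out libraries were alternatives. On simulated data with 200 changed genes, limma recovered 0% and edgeR 31% of 4-fold changes (17547 genes), and 65% and 98% of 16-fold changes (17498 genes). Per-kilobase levels used GENCODE M21 exon lengths, and promoters came from RefSeq, with 50 of 59 members matched.

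Library values are given for members past the fold threshold with an average of 100 or more, for members called by limma or edgeR, and for the member of each role group with the highest level per kilobase. Values of other members, and counts over genes that passed in both groups, are added to account for the whole list. Members and lists were chosen with earlier results of these data known.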

Additional observations from a re-analysis of the deposited data

How the results depend on the processing

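Depth was limiting for 16 of 59 members, which had at most 3 reads in each library of a group, 7 of them in both groups. No paired analysis was possible because the groups share only replicate number 3. The 17 members past the fold threshold towards luminal cells became 11 with every library required at 10 or more and both averages at 20 or more, 4 at a fold threshold of 4, and 9 with an average of 100 or more, an alternative chosen after seeing the data. The 5 towards basal cells became 2 rescaled to nuclear protein-coding genes, 1 at a fold threshold of 4, 3 with sparse members at their bound and 3 with an average of 100 or more. Leaving out 1 library in turn gave 16 to 18 towards luminal cells and 5 to 8 towards basal cells. The median log2 difference of 0.33 was 0.25 with the stricter filter, 0.37 under median-ratio scaling and 0.64 under nuclear protein-coding scaling, and 0.16 to 0.35 with 1 library left out. Without luminal 3 it was 0.27 beside 0.16 for all genes, a smaller gap than 0.33 beside -0.10. Non-overlapping members higher in basal cells, 9, were 5 under nuclear protein-coding scaling and 13 to 18 with 1 library left out, where fewer libraries make overlap less likely. The 0 limma calls towards luminal cells became 1 with edgeR, 1 with DESeq2, 2 with edgeR without a filter and 0 to 1 with 1 library left out, and the 0 towards basal cells became 2 with edgeR without a filter. With 1 library left out, an alternative chosen after seeing the data, edgeR called 0 to 3 members towards luminal cells and 0 to 1 towards basal cells. Companion genes past the fold threshold, 8 and 5, became 13 and 3 under nuclear protein-coding scaling, and 7 to 9 and 4 to 10 with 1 library left out. Signs turned for Txnip (-0.25 without basal 3, and -0.75 to 1.07 over the left-out libraries, lowest without luminal 2), Prdx1 (0.19 quantile, 0.20 nuclear protein-coding, 0.047 without luminal 2, and -0.27 without luminal 3) and Cat (0.026 quantile, 0.18 nuclear protein-coding, 0.16 without basal 1, 0.29 without luminal 2, and -0.55 without luminal 3). The other 24 of the 27 genes named by the rule kept their direction under the alternatives run on them. The other members were not followed through all of these, and Gpx7 had a log2 difference of 0.41 in limma and -0.017 in edgeR. Causes were not tested.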

Other observations

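Within 100000 bases of the theta-class genes on chromosome 10, Chchd10 (chr10:75933130-75937747), a mitochondrial protein gene, read 25 and 13 in basal 1 and basal 3 and 213 and 187 in luminal 3 and luminal 2, without overlap (log2 difference 3.39, SE 0.86, limma adjusted p = 0.109). Cabin1, a calcineurin-binding repressor on the other side of the cluster, read 1196 and 1345 against 2207 and 1870 (log2 difference 0.68, SE 0.24, limma adjusted p = 0.229). Derl3 read 25 and 6 against 58 and 218. Smarcb1 (532 and 383 against 445 and 467), Mif (463 and 201 against 407 and 312), Ddt (138 and 78 against 194 and 31) and Mmp11 (38 and 52 against 155 and 31), in the same interval, overlapped between the groups. Gstt4, a theta-class gene outside the list that lies between Gstt1 and Gstt2, had 0 in all 4 libraries. These neighbours were chosen after the values of the theta genes were seen.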
